A study of Homo sapiens with 16 samples.

Results

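TNS1, CLIC2, CCDC80, LINC01929 and LGALS12 are 5 of the 60719 genes counted in an RNA sequencing series of MDA-MB-231 cells, a human triple-negative breast cancer line. They were chosen from measured values, for large differences between TXNIP knockout cells and unedited cells in the untreated cells or in the cells given a non-targeting siRNA, so their levels in those 2 comparisons are described here without a test. All 5 could be matched to 1 gene identifier each, and all 5 passed the filter of more than 5 summed counts in every comparison described. The series holds 16 libraries in 6 groups. Unedited cells (parental 231) and cells with TXNIP deleted by CRISPR/Cas9 (231:TKO) were sequenced untreated, with 2 replicates each. Both populations were also sequenced 48 hours after transfection with 25 nM of a non-targeting siRNA (siNT) or of an siRNA against Myc (siMyc), with 3 replicates in each of these 4 groups. The knockout cells were grown from single cells, so a difference between 231:TKO and parental 231 holds whatever sets the isolated clones apart, and clone and knockout cannot be told apart.

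TXNIP is an arrestin-like protein that limits glucose uptake, and Myc is a transcription factor that binds DNA with its partner Max. The 5 genes do not form a pathway. TNS1 encodes tensin 1, which links actin filaments to the cytoplasmic tails of integrins at focal adhesions. CCDC80 encodes a secreted protein of the extracellular matrix that has been studied in fat cells and in tumors. CLIC2 belongs to the chloride intracellular channel family, soluble proteins with a fold like that of glutathione transferases. LGALS12 encodes galectin-12, a sugar-binding protein found on the lipid droplets of fat cells. LINC01929 is a long intergenic noncoding RNA.

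On GRCh38, TNS1 (ENSG00000079308) spans chr2:217799588-218033982, CCDC80 (ENSG00000091986) chr3:112596797-112649530, CLIC2 (ENSG00000155962) chrX:155276211-155334657 and LINC01929 (ENSG00000267013) chr18:55105904-55124306, all on the minus strand. LGALS12 (ENSG00000133317) spans chr11:63506052-63516774 on the plus strand. Their summed exon lengths, in the same order, are 16281, 13068, 2840, 3254 and 2302 bases, the same in both annotation releases of the deposited tables. CCDC80, LINC01929 and LGALS12 overlap no other annotated gene. TNS1 overlaps 2 genes, 1 of them on its own strand, both without counts. CLIC2 overlaps 3 genes, 1 of them on its own strand, and none of the 3 had a group mean above 0.1501 CPM (counts scaled by the library total).

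The RefSeq promoter windows of these genes (GRCh38.p14, from 250 bases before a start site to 50 after it) are shown because Myc was knocked down in the series and the site that Myc and Max bind, the E-box CACGTG, can be looked for in them. The second motif searched was TGACTCA, the site of AP-1 factors, on both strands, and the capitals mark it. The motifs do not overlap each other. TNS1 has 5 windows, of which the one with the most CG pairs is shown, CLIC2, CCDC80 and LINC01929 have 1 each, and LGALS12 has none in the table used. The 4 windows lie on the minus strand and are printed 5′ to 3′.
TNS1, chr2:218010226-218010525: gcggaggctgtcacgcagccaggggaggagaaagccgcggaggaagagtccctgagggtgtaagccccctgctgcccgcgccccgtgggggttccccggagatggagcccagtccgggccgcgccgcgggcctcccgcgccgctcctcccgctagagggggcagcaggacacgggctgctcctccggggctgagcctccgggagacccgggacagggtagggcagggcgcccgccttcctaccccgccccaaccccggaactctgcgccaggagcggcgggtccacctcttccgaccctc
CLIC2, chrX:155334565-155334864: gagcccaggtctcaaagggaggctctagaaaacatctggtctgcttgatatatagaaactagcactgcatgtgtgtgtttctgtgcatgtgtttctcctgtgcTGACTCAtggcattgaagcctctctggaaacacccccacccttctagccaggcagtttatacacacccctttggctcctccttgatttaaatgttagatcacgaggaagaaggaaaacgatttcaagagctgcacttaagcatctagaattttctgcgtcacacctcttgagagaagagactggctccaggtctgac
CCDC80, chr3:112641094-112641393: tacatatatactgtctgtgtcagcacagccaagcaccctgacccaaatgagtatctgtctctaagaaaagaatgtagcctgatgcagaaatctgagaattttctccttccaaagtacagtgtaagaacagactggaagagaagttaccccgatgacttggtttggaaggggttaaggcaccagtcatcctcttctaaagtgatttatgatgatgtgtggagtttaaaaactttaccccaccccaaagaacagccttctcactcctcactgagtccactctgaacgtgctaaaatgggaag
LINC01929, chr18:55124257-55124556: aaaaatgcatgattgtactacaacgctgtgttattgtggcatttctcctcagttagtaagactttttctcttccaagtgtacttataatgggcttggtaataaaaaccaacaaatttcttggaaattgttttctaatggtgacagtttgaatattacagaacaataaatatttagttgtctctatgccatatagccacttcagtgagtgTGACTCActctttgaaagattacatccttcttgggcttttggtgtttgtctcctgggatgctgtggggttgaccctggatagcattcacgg
CACGTG was in 0 of the 8 windows of these genes, and in 7.26% of the 35116 windows in the table. TGACTCA occurred once in the CLIC2 window and once in the LINC01929 window, and 4.95% of all windows hold it. The TNS1 window shown has 29 CG pairs and the other 4 TNS1 windows have 6 or 7. The windows of CLIC2, CCDC80 and LINC01929 have 3, 2 and 2 CG pairs, against a median of 14 over all windows. The windows of TNS1 and CCDC80 lie inside the gene spans given above. The start site is 218010275 for the TNS1 window shown and 112641143 for CCDC80. The 5′ ends of these spans were therefore not searched. A match or its lack describes these letters only.

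The libraries held between 18953668 and 59799444 counts. Levels of single libraries are given as CPM of the library total, with 95% exact binomial intervals where counts were few, which cover counting error only. TXNIP lay at 293 and 295 CPM in untreated parental 231, and at 12.4 CPM in 231:TKO replicate 1 and 46.0 CPM in replicate 2. In the siRNA groups it lay between 288 and 446 CPM in parental 231 and between 6.76 and 10.3 CPM in 231:TKO. MYC fell with siMyc, by 1.21 on the log2 scale in 231:TKO (SE 0.06, edgeR adjusted p = 1.7e-11) and by 0.96 in parental 231 (SE 0.09, edgeR adjusted p = 0.0296). The 6 genes known to be abundant in MDA-MB-231 cells (VIM, CD44, MSN, AXL, CAV1 and ANXA1) summed to between 6086 and 9744 CPM in every library. Of 6 genes known to be low or absent in these cells, PGR and ESR1, the hormone receptor genes, had group means of at most 0.037 and 0.262 CPM, while the other 4 reached at least 1 CPM in a group: ERBB2 had group means of 82.95 to 102.9 CPM, EPCAM of 12.7 to 22.6 CPM, GATA3 of 12.4 to 24.6 CPM and CDH1 of up to 8.43 CPM. Most of that list was therefore detected in both populations.

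Several libraries stood apart from their group. Parental 231+siNT replicate 1 and parental 231+siMyc replicate 3 deviated from their group means in the same genes (r = 0.9 across 13409 genes, which are not independent replicates), and results that rest on them are given with and without them. The untreated 231:TKO replicates also differed more from each other than the untreated parental 231 replicates did (chi-square per degree of freedom of 34.8 and 1.92). Counting was per read in the untreated libraries and per read pair in those given siRNA. In the file headers, the siRNA libraries of parental 231 carry another run number and a later Ensembl release than those of 231:TKO. In every comparison of the siRNA groups between the 2 populations, knockout, clone and sequencing run therefore cannot be told apart. No label says how the replicates were separated, so p-values measure the spread between these libraries.

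**Figure D1:**
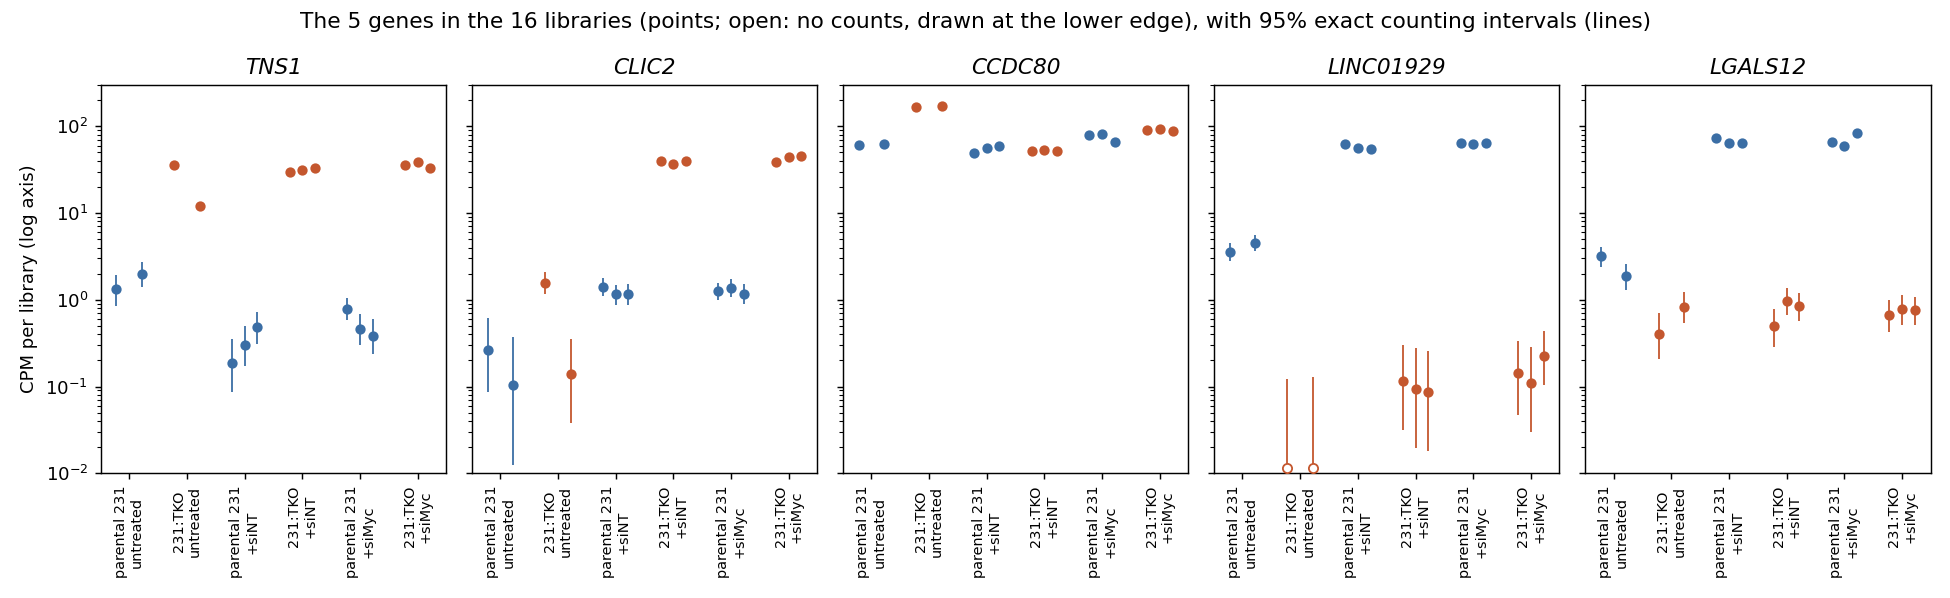
CPM of TNS1, CLIC2, CCDC80, LINC01929 and LGALS12 in each of the 16 libraries on a log axis, parental 231 in blue and 231:TKO in orange. Points are libraries, lines are 95% exact counting intervals, and open circles are the 2 libraries without a LINC01929 count. TNS1 and CLIC2 sit above 29 CPM in every siRNA-treated 231:TKO library and below 1.5 CPM in every siRNA-treated parental 231 library, whereas LINC01929 and LGALS12 show the opposite order.

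Of the 5 genes, only TNS1, the tensin 1 gene, had every 231:TKO library above the parental 231 libraries under all 3 conditions. In untreated cells, TNS1 lay at 1.32 and 1.97 CPM in parental 231 and at 35.9 and 11.9 CPM in 231:TKO. With siNT, it lay at 0.187, 0.305 and 0.488 CPM in parental 231 and at 29.6, 31.5 and 33.1 CPM in 231:TKO. With siMyc, the values were 0.786, 0.466 and 0.385 CPM in parental 231 and 36.2, 38.3 and 33.2 CPM in 231:TKO. The populations did not overlap in any condition, and every 231:TKO library was at least at the level of untreated 231:TKO replicate 2. That library also held 46.0 CPM of TXNIP against 12.4 CPM in replicate 1, and the part of this difference in the TNS1 level was not tested. The order of the group means was 231:TKO+siMyc, 231:TKO+siNT, untreated 231:TKO, untreated parental 231, parental 231+siMyc and parental 231+siNT. Untreated 231:TKO overlapped both siRNA-treated 231:TKO groups, and the 2 siRNA-treated parental 231 groups overlapped each other.

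CLIC2 had a high level in the siRNA-treated 231:TKO cells and a low level everywhere else. In untreated cells it was near the limit of detection, at 0.264 CPM (5 counts, 95% interval 0.0857 to 0.616) and 0.104 CPM (2 counts, 0.0126 to 0.375) in parental 231. Untreated 231:TKO replicate 1 had 1.57 CPM (47 counts, 1.15 to 2.09) and replicate 2 had 0.139 CPM (4 counts, 0.0378 to 0.355), so the untreated populations overlapped. With siNT, CLIC2 lay at 1.41, 1.16 and 1.16 CPM in parental 231 and at 39.9, 36.6 and 39.4 CPM in 231:TKO. With siMyc, it lay at 1.25, 1.38 and 1.17 CPM in parental 231 and at 39.1, 44.4 and 44.96 CPM in 231:TKO. The siRNA-treated populations did not overlap. The siNT and siMyc groups overlapped within each population. Untreated 231:TKO, with its replicates far apart, spanned the range of both siRNA-treated parental 231 groups, and untreated parental 231 lay below those groups.

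For CCDC80 the knockout difference was seen in the untreated cells. CCDC80 lay at 60.8 and 62.1 CPM in parental 231 and at 166 and 170 CPM in 231:TKO without siRNA. With siNT, it lay at 48.8, 55.5 and 58.6 CPM in parental 231 and at 51.6, 53.5 and 51.5 CPM in 231:TKO, and these groups overlapped. With siMyc, it lay at 79.6, 81.2 and 65.2 CPM in parental 231, the last of which is a library that stood apart, and at 89.9, 93.7 and 87.6 CPM in 231:TKO. Both populations thus had higher levels with siMyc than with siNT in every library. In the order of the group means, untreated 231:TKO was first and was followed by 231:TKO+siMyc, parental 231+siMyc, untreated parental 231, parental 231+siNT and 231:TKO+siNT, of which only the last 2 neighbours overlapped.

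LINC01929, the noncoding RNA, was at or near 0 in every 231:TKO library. It had 68 and 88 counts in untreated parental 231 (3.59 and 4.57 CPM) and 0 counts in both untreated 231:TKO libraries, which at 3 counts per library makes it at least 39.2-fold lower there. With siNT, it lay at 62.9, 56.9 and 54.6 CPM in parental 231, and 231:TKO had 4, 3 and 3 counts (0.116, 0.0942 and 0.0874 CPM). With siMyc, it lay at 63.8, 63.3 and 64.4 CPM in parental 231, and 231:TKO had 5, 4 and 9 counts (0.144, 0.111 and 0.228 CPM). The populations did not overlap in any condition. The siNT and siMyc groups of 231:TKO overlapped, while those of parental 231 did not.

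LGALS12 followed the same order with a residual level in 231:TKO. It lay at 3.17 and 1.87 CPM in untreated parental 231 and at 0.401 CPM (95% interval 0.207 to 0.7) and 0.833 CPM (0.533 to 1.24) in untreated 231:TKO. With siNT, the values were 73.2, 63.8 and 64.9 CPM in parental 231 and 0.495, 0.973 and 0.844 CPM in 231:TKO. With siMyc, they were 65.8, 60.1 and 83.7 CPM in parental 231 and 0.664, 0.776 and 0.759 CPM in 231:TKO. The highest values of the siRNA-treated parental 231 groups, 73.2 and 83.7 CPM, were in the pair of libraries that stood apart. No 231:TKO library reached the lowest parental 231 library, and the 3 groups of 231:TKO overlapped one another, as did the 2 siRNA-treated parental 231 groups.

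The fold changes of the untreated and siNT comparisons chose the genes and are given as a description, after scaling by trimmed mean of M-values (TMM). Without siRNA, 231:TKO differed from parental 231 by a log2 fold change of 3.90 for TNS1 (SE 0.67), 2.24 for CLIC2 (SE 1.33), 1.49 for CCDC80 (SE 0.06) and −1.98 for LGALS12 (SE 0.47). Leaving out 231:TKO replicate 1 turned the CLIC2 value to −0.37 and lowered that of TNS1 to 2.87. With siNT, the values were 6.51 for TNS1 (SE 0.21), 4.89 for CLIC2 (SE 0.12), −0.12 for CCDC80 (SE 0.10), −9.21 for LINC01929 (SE 0.17) and −6.51 for LGALS12 (SE 0.18). Without parental 231+siNT replicate 1 they were 6.25, 5.01, −0.17, −9.13 and −6.43. CCDC80 thus had its large difference in the untreated cells and CLIC2 in the siNT-treated cells.

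The siMyc-treated libraries were not used in that choice, and the difference between 231:TKO+siMyc and parental 231+siMyc was tested with edgeR's quasi-likelihood test over 23561 genes with Benjamini-Hochberg adjustment. These libraries come from the same 2 cell populations and the same runs as the siNT libraries. For genes chosen on the siNT difference, the test is therefore not independent of the choice. Its p-values, calls and ranks are no separate support for a knockout difference. TNS1 was higher in 231:TKO by a log2 fold change of 5.92 (SE 0.19, adjusted p = 9.33e-11, edgeR) and CLIC2 by 4.99 (SE 0.13, adjusted p = 2.05e-11, edgeR). LINC01929 was lower, with a log2 fold change of −8.67 (SE 0.17, adjusted p = 2.21e-12, edgeR), and so was LGALS12, at −6.65 (SE 0.17, adjusted p = 2.47e-11, edgeR). CCDC80 did not pass the threshold (log2 fold change 0.18, SE 0.10, edgeR adjusted p = 0.194), although its groups did not overlap. Of the 5 genes, 2 were thus called higher and 2 lower, where 18.8% of all genes tested were called higher and 21.7% lower. TNS1 had rank 49 and CLIC2 rank 111 among the 23561 genes when ordered by rise, and LINC01929 had rank 30 and LGALS12 rank 101 when ordered by fall. Without parental 231+siMyc replicate 3, which left the values at 5.72, 4.94, −8.67, −6.50 and 0.08 for TNS1, CLIC2, LINC01929, LGALS12 and CCDC80, the same 4 genes passed, beside 23.1% of all genes called higher and 26.6% called lower.

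**Figure D2:**
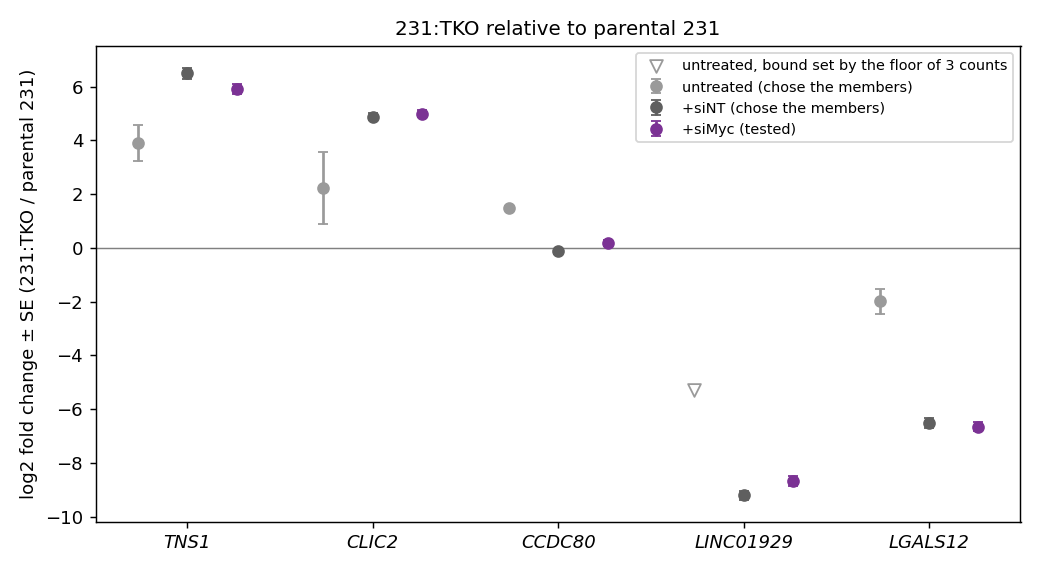
Log2 fold change of 231:TKO relative to parental 231 for each gene (points, with SE) in untreated, siNT-treated and siMyc-treated cells, of which the first pair chose the genes. The triangle marks the bound for LINC01929 in untreated cells. CCDC80 is apart from 0 without siRNA and lies between −0.12 and 0.18 with it, while TNS1, CLIC2 and LGALS12 lie farther from 0 with siRNA than without.

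The response to Myc knockdown was compared within each population, with the siNT libraries, on which the genes had been chosen, as the control. In 231:TKO, CCDC80 rose 1.72-fold with siMyc (log2 fold change 0.78, SE 0.05, edgeR adjusted p = 1.2e-09), and it was higher in 3 of 3 libraries. The other 4 genes did not pass the threshold. TNS1 had a log2 fold change of 0.18 (SE 0.07, edgeR adjusted p = 0.0511), with 3 libraries of each group that did not overlap, and CLIC2 one of 0.14 (SE 0.07, edgeR adjusted p = 0.131). LGALS12 had a value of −0.07 (SE 0.27) and LINC01929 one of 0.68 (SE 0.62), from 10 counts in the 3 siNT libraries and 18 in the 3 siMyc libraries. So 1 of the 5 genes was called higher and 0 lower, beside 13.3% of 22450 genes called higher and 13.9% called lower. Over the alternative settings the adjusted p of TNS1 ran from 0.00282 to 0.464, and both TNS1 and CLIC2 passed when 1 siMyc library was left out: TNS1 at 0.24 without replicate 3 (edgeR adjusted p = 0.00282) and CLIC2 at 0.20 without replicate 1 (edgeR adjusted p = 0.0332).

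In parental 231, none of the 5 genes passed the threshold in the fit of the 6 libraries, in which 0.24% of 23728 genes were called higher and 0.354% lower. CCDC80 had a log2 fold change of 0.49 (SE 0.12, edgeR adjusted p = 0.114) and was higher in 3 of 3 siMyc libraries. TNS1 had a value of 0.77 (SE 0.41, edgeR adjusted p = 0.458), from 48 counts in the siNT libraries and 91 in the siMyc libraries. LINC01929 had a value of 0.16 (SE 0.10, edgeR adjusted p = 0.522). CLIC2 and LGALS12 had values of 0.05 (SE 0.18) and 0.07 (SE 0.14). Of the 23728 genes, 3463 had an unadjusted p under 0.05, and DESeq2 called 1110, CCDC80 among them (adjusted p = 0.0142).

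This count moved with the treatment of the pair of parental 231 libraries that stood apart. With a factor for the pair, CCDC80 rose by 0.49 (SE 0.05, edgeR adjusted p = 2.57e-12) and LINC01929 by 0.16 (SE 0.05, edgeR adjusted p = 0.00648), and the other 3 genes stayed past no threshold, with adjusted p-values of 0.0685 for TNS1, 0.889 for CLIC2 and 0.37 for LGALS12 (edgeR). These 2 of 5 genes stood beside 13.7% of all genes called higher and 13.1% called lower. With both libraries left out, CCDC80 rose by 0.51 (edgeR adjusted p = 1.83e-05) and LINC01929 by 0.21 (edgeR adjusted p = 0.00881), beside 9.94% of all genes called higher and 10.9% called lower. The pair was picked from these same libraries, so the p-values of both fits depend on that choice. TNS1, CLIC2 and LINC01929 also had positive log2 fold changes with siMyc in both populations, but with overlapping groups in parental 231 or in 231:TKO. Of the 5 genes, only CCDC80 had every siMyc library above every siNT library in both populations. In parental 231, CCDC80 did not pass in the fit of all libraries without the factor (edgeR adjusted p = 0.114). Whether its responses of 0.78 in 231:TKO and 0.49 in parental 231 differ was not tested. That contrast contains the siNT comparison, which entered the choice of the 5 genes. The large CCDC80 difference itself was in the untreated comparison.

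**Figure D3:**
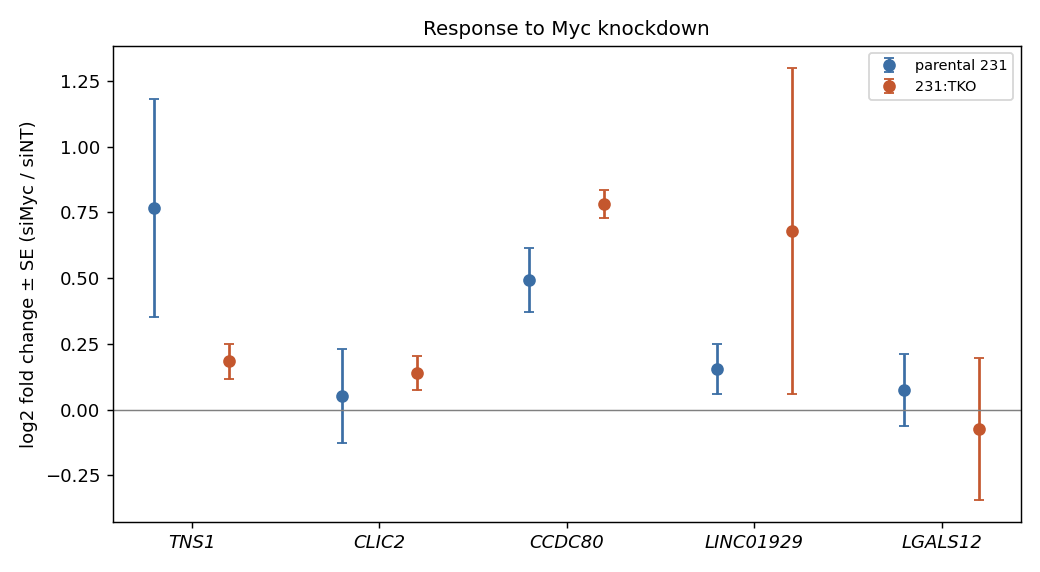
Log2 fold change of siMyc relative to siNT for each gene in parental 231 and in 231:TKO (points, with SE, from the fits of 6 libraries each). The 2 CCDC80 values, 0.49 and 0.78, are more than 3 SE from 0, but the 0.49 of parental 231 did not pass the threshold (edgeR adjusted p = 0.114). The LINC01929 value in 231:TKO has the widest error, from 10 and 18 counts.

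Levels also differed between the untreated and the siNT-treated libraries of a population, where transfection, read format and sequencing run cannot be told apart, so the ratios of mean CPM are a description. In 231:TKO, CLIC2 was 45.2 times higher with siNT than without siRNA, and in parental 231 it was 6.76 times higher. LINC01929 and LGALS12 were 14.3 and 26.7 times higher with siNT in parental 231, and LGALS12 was 1.25 times higher in 231:TKO, where its groups overlapped. TNS1 was 5.04 times lower with siNT in parental 231 and 1.31 times higher in 231:TKO, where its groups overlapped. CCDC80 was 3.22 times lower with siNT in 231:TKO and 1.13 times lower in parental 231. Without siRNA, then, CLIC2 was low in both populations, LINC01929 and LGALS12 were low in parental 231, and TNS1 was higher in parental 231 than with siNT. In such bulk samples, fewer cells that express a gene and less RNA per cell cannot be told apart.

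Per kilobase of exon, the genes changed places between the populations. In 231:TKO+siNT, CLIC2 was highest at 13.6 ± 0.616 CPM per kilobase (SD, n = 3), followed by CCDC80 at 3.99 ± 0.0892, TNS1 at 1.93 ± 0.106, LGALS12 at 0.335 ± 0.108 and LINC01929 at 0.0305 ± 0.00466. In parental 231+siNT, LGALS12 was highest at 29.2 ± 2.24 CPM per kilobase (SD, n = 3), followed by LINC01929 at 17.9 ± 1.33, CCDC80 at 4.16 ± 0.383, CLIC2 at 0.438 ± 0.0513 and TNS1 at 0.0201 ± 0.00934. In the untreated cells, CCDC80 was highest in both populations, at 4.70 ± 0.0660 CPM per kilobase in parental 231 and 12.9 ± 0.249 in 231:TKO (SD, n = 2). In the 2 siNT groups, neighbours in these orders were farther apart than their SDs.

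Over the 16 libraries, LINC01929 and LGALS12 had the most similar pattern of log2(CPM + 0.5), with a Pearson r of 0.98. TNS1 ran opposite to both, with an r of −0.96 and −0.92, and had an r of 0.76 with CLIC2. CCDC80 had r values between −0.39 and 0.36 with the other 4. These values describe libraries that share population, run and depth, and the genes were chosen for differences between the same populations.

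Among 13445 genes with a mean of at least 1 CPM, the 3 most similar in pattern were named for each gene. For LGALS12 they were TSPAN8, SMIM31 and TFF3, with r between 0.997 and 0.998. TSPAN8, a tetraspanin, had 0.760 CPM in untreated parental 231, 31.1 CPM in parental 231+siNT and no counts in 231:TKO, and the secreted trefoil factor TFF3 had 0.681, 23.6 and at most 0.0347 CPM. For LINC01929 they were SPDEF, C1orf115 and DSC2, with r between 0.992 and 0.997. SPDEF, an ETS-family transcription factor of secretory epithelia, had 4.66 CPM in untreated parental 231, 99.7 CPM in parental 231+siNT and at most 0.472 CPM in any 231:TKO group. DSC2, a desmosomal cadherin, had 2.51 and 9.88 CPM in the same parental 231 groups and at most 0.00971 CPM in 231:TKO. For CLIC2 they were TFPI2, RIPOR3 and KALRN, with r between 0.988 and 0.993, and the protease inhibitor TFPI2 had 63.8 CPM in parental 231+siNT and 282 CPM in 231:TKO+siNT. For TNS1 they were TPGS2, SCARA3 and HLF (r between 0.976 and 0.984). For CCDC80 they were CYP2U1, JHY and FAM114A1 (r between 0.907 and 0.958), of which CYP2U1, a cytochrome P450, had 29.4 CPM in untreated parental 231, 50.2 CPM in untreated 231:TKO and 28.6 and 28.4 CPM in the siNT groups. With a pseudocount of 0.1 in place of 0.5, the names for CCDC80 were the same, whereas ZNF114 took the place of HLF for TNS1, DPP4 and an unnamed gene those of RIPOR3 and KALRN for CLIC2, ESAM and SOCS2 those of C1orf115 and DSC2 for LINC01929, and AGR2 that of TSPAN8 for LGALS12.

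TNS1 was set beside the other tensins and 16 further genes of focal adhesions. In the siMyc comparison between the populations, 5 of these 19 genes were called higher in 231:TKO and 2 lower, with a median log2 fold change of −0.02 beside −0.01 over all genes. Of all genes tested, 18.8% were called higher and 21.7% lower. The tensins did not move together. TNS4, the short tensin without the actin-binding part, was lower in 231:TKO, with a log2 fold change of −4.97 (SE 0.17, edgeR adjusted p = 2.12e-10) and 34.8 ± 5.73 against 1.18 ± 0.212 CPM (SD, n = 3), so TNS1 and TNS4 were opposite. TNS2 was higher by 0.45 (SE 0.14, edgeR adjusted p = 0.0202) and TNS3 had a value of −0.22 (edgeR adjusted p = 0.374). TLN2, a talin that binds integrin tails, was higher by 1.27 (edgeR adjusted p = 0.00573), as was DLC1, whose protein binds tensins, by 0.93 (edgeR adjusted p = 3.42e-05). BCAR1, an adaptor of focal adhesions, was lower (log2 fold change −0.63, edgeR adjusted p = 0.00018). In untreated cells, TNS2 and BCAR1 had the opposite sign, at −0.24 (SE 0.11) and 0.20 (SE 0.07). TNS4, TLN2 and DLC1 kept theirs, at −4.54 (SE 1.09), 0.95 (SE 0.07) and 0.25 (SE 0.17). Without parental 231+siMyc replicate 3, 7 of the 19 were called higher and 8 lower, beside 23.1% and 26.6% of all genes. With Myc knockdown, 9 of the 19 rose and 1 fell in 231:TKO, and 1 rose in parental 231, or 11 rose and 1 fell with a factor for the pair of libraries that stood apart. The shares of all genes that rose and fell were 13.3% and 13.9% in 231:TKO and 0.24% and 0.354% in parental 231. With the factor they were 13.7% and 13.1%. The gene that fell in 231:TKO was FERMT1, a kindlin (log2 fold change −1.26, edgeR adjusted p = 2.17e-09), where TNS1 had a value of 0.18.

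Of the 5 other CLIC genes, 1 was called higher in 231:TKO+siMyc and 3 lower, with a median of −1.02 beside −0.01 over all genes, so CLIC2 differed in direction from most of its family. Of all genes tested, 18.8% were called higher and 21.7% lower. CLIC5 was lower by the largest amount (log2 fold change −2.21, SE 0.15, edgeR adjusted p = 8.28e-08), and CLIC1 and CLIC3 were lower, with log2 fold changes of −1.23 and −1.02 (edgeR adjusted p = 5.66e-07 and 2.54e-05). CLIC6 was higher by 0.59 (SE 0.10, edgeR adjusted p = 0.000405). In untreated cells, CLIC5 was at −1.33 (SE 1.46), CLIC1 at −0.04 (SE 0.11), CLIC3 at −0.52 (SE 0.10) and CLIC6 at 1.18 (SE 0.15). CLIC4 had a value of −0.13 (edgeR adjusted p = 0.44). Without parental 231+siMyc replicate 3, 4 CLIC genes were called lower, beside 26.6% of all genes. Per kilobase, CLIC1 had the highest level of the family in every group. With siMyc, 4 of the 5 rose in 231:TKO and 1 in parental 231, or 4 with the factor for the pair, and CLIC2 passed in neither population. The shares of all genes that rose were 13.3% in 231:TKO and 0.24% in parental 231, or 13.7% with the factor.

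With siMyc, LGALS12 was accompanied by other galectins that were lower in 231:TKO. Of the 13 other galectin genes, 8 could be tested in the siMyc comparison, of which 5 were lower and 1 higher, with a median of −0.55. The higher one was LGALS9B (0.99, edgeR adjusted p = 0.042), at 0.244 CPM in parental 231+siMyc and 0.521 CPM in 231:TKO+siMyc. LGALS7B, among the lower ones, was near 0, at 0.0868 and 0.00924 CPM in the same groups. Of all genes tested, 21.7% were lower and 18.8% higher. LGALS9 was lower by the largest amount among those with at least 1 CPM, with a log2 fold change of −2.66 (SE 0.13, edgeR adjusted p = 2.93e-09) and 12.1 ± 0.610 against 2.03 ± 0.191 CPM (SD, n = 3). LGALS9 has near-identical copies, LGALS9B and LGALS9C, among which reads could be split. LGALS1, LGALS3 and LGALS8 were lower by less, with log2 fold changes of −0.70, −0.40 and −0.38 (edgeR adjusted p = 0.000793, 0.00388 and 0.021). In untreated cells, LGALS1 had the opposite sign, at 0.29 (SE 0.06). LGALS3, LGALS8 and LGALS9 kept theirs, at −0.19 (SE 0.06), −0.84 (SE 0.10) and −2.75 (SE 0.77). With siMyc, 2 of the 6 tested galectins rose in 231:TKO, and 0 of 8 rose in parental 231, or 4 with the factor for the pair, while LGALS12 passed in no fit. The shares of all genes that rose were 13.3% in 231:TKO and 0.24% in parental 231, or 13.7% with the factor.

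**Figure D4:**
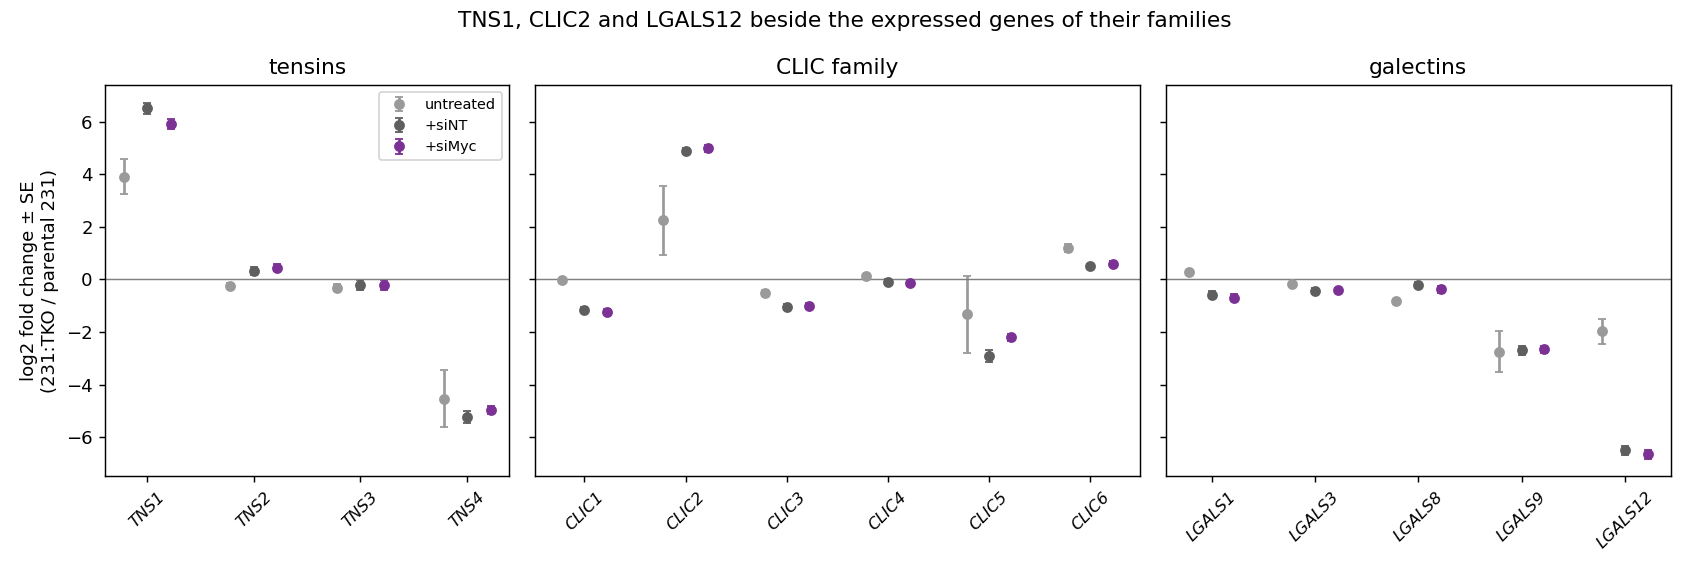
Log2 fold change of 231:TKO relative to parental 231 (points, with SE) for TNS1, CLIC2, LGALS12 and the genes of their families with at least 1 CPM in a group, in untreated, siNT-treated and siMyc-treated cells. TNS4 lies at −4.97 with siMyc where TNS1 lies at 5.92, CLIC1, CLIC3 and CLIC5 lie below 0 with siMyc where CLIC2 lies at 4.99, and LGALS9 is the galectin nearest to LGALS12.

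CCDC80 was set beside its relatives SRPX and SRPX2 and 15 other genes of secreted matrix proteins. Of the 14 that could be tested in the siMyc comparison, 5 were higher in 231:TKO and 1 lower, with a median of 0.52. Of all genes tested, 18.8% were higher and 21.7% lower. The higher ones were SRPX (0.56, edgeR adjusted p = 0.000249), THBS1 (1.44, edgeR adjusted p = 7.76e-07), THBS2 (2.91, edgeR adjusted p = 4.55e-09), TGFBI (1.37, edgeR adjusted p = 3.07e-07) and FBLN5 (1.11, edgeR adjusted p = 0.000593), and LOX, which cross-links collagen and elastin, was lower (−1.04, edgeR adjusted p = 1.9e-05). In untreated cells, THBS2 and LOX had the opposite order, THBS2 at 0.446 ± 0.116 CPM in parental 231 and 0.0173 ± 0.0245 CPM in 231:TKO, and LOX at 40.2 ± 2.51 and 104.5 ± 54.9 CPM (SD, n = 2). Without parental 231+siMyc replicate 3, 6 were called higher and 3 lower, beside 23.1% and 26.6% of all genes. In 231:TKO, 8 of 14 rose with siMyc and 1 fell, beside 13.3% and 13.9% of all genes. FN1, encoding fibronectin, rose by 0.71 (SE 0.04, edgeR adjusted p = 3.17e-10) and TGFBI by 0.47 (SE 0.04, edgeR adjusted p = 9.53e-08), beside 0.78 for CCDC80, whereas SRPX fell by 0.26 (SE 0.06, edgeR adjusted p = 0.00112). In parental 231, 0 of 15 passed, or 9 rose and 1 fell with the factor for the pair. With that factor, 13.7% of all genes rose and 13.1% fell, and without it 0.24% and 0.354%.

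LGALS12 and CCDC80 are both known from fat cells, and 12 of 14 other fat-cell genes could be tested with siMyc. Of these, 2 were higher in 231:TKO and 4 lower, with a median of −0.37. Of all genes tested, 18.8% were higher and 21.7% lower. LPL, the lipase that releases fatty acids from lipoproteins, was higher by 5.41 (SE 0.15, edgeR adjusted p = 4.57e-11), at 17.5 ± 1.29 against 0.383 ± 0.0460 CPM (SD, n = 3). PPARG, the regulator of fat-cell differentiation, was lower (−1.08, SE 0.10, edgeR adjusted p = 1.83e-06). In untreated cells, LPL had the opposite order, at 5.87 ± 0.436 CPM in parental 231 and 0.0501 ± 0.0709 CPM in 231:TKO (SD, n = 2). PPARG was at 40.4 ± 0.174 and 40.3 ± 2.22 CPM in the same groups, a log2 fold change of 0.04 (SE 0.08). With siMyc, 2 of 10 rose in 231:TKO and 0 of 11 passed in parental 231, where 1 fell with the factor for the pair. Of all genes, 13.3% rose in 231:TKO. In parental 231, 0.24% rose and 0.354% fell, and 13.1% fell with the factor.

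Markers of other cell types moved with some of these differences, and their part in the results was not tested. Of 8 fibroblast markers, 4 had at least 1 CPM in a group, and their sum lay between 53.8 and 62.9 CPM in parental 231+siMyc and between 29.8 and 34.7 CPM in 231:TKO+siMyc, with DCN and THY1 at no counts in 231:TKO+siNT and 231:TKO+siMyc. In that comparison, 2 were called higher in 231:TKO and 3 lower, beside 18.8% and 21.7% of all genes. COL1A2 was among the lower ones (log2 fold change −4.17, edgeR adjusted p = 3.93e-10). The higher ones were PDGFRB (1.13, edgeR adjusted p = 1.74e-05) and PDGFRA (2.04, edgeR adjusted p = 0.000314), the latter below 1 CPM in every group. Untreated, PDGFRB had the opposite order, at 22.8 ± 0.405 CPM in parental 231 and 9.73 ± 4.68 CPM in 231:TKO (SD, n = 2). In untreated cells the sum lay between 41.1 and 43.7 CPM in parental 231 and between 16.3 and 21.8 CPM in 231:TKO, and with siNT between 35.5 and 48.0 and between 23.4 and 24.5 CPM. The 5 leukocyte markers summed to between 27.2 and 33.1 CPM in parental 231+siMyc and between 9.74 and 12.2 CPM in 231:TKO+siMyc, between 18.9 and 23.4 and between 5.70 and 6.26 CPM with siNT, and between 4.57 and 5.12 and between 1.42 and 1.47 CPM untreated. CD14 made up most of the sum in the siRNA groups, and CD3E had group means of at most 0.00962 CPM. In the siMyc comparison, 3 leukocyte markers could be tested and all 3 were lower, beside 21.7% of all genes. The 4 endothelial markers found summed to at most 0.577 CPM in any library, and 0 of 3 passed. CDH1, the epithelial cadherin that MDA-MB-231 cells are known to lack, had 8.43 ± 0.763 CPM in parental 231+siMyc and 1.06 ± 0.0357 CPM in 231:TKO+siMyc (SD, n = 3), a log2 fold change of −3.07 (SE 0.15, edgeR adjusted p = 3.26e-09).

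The position of the genes was not used to choose them, and the genes within 1 Mb on either side were described in the siMyc comparison. Near TNS1, 6 of 26 tested genes were called higher in 231:TKO and 7 lower, near CLIC2 6 and 12 of 43, near CCDC80 4 and 5 of 22, near LINC01929 2 and 4 of 13, and near LGALS12 6 and 30 of 72. Among all genes tested, 18.8% were called higher and 21.7% lower. The medians of the expressed neighbours were 0.02, −0.11, 0.07, −0.28 and −0.30, beside −0.01 over all genes. These values depended on the window: within 0.5 Mb the medians were −0.22, 0.22, −0.08, −1.17 and −0.09, with 0 genes higher and 4 lower of 14 near TNS1, 5 and 3 of 17 near CLIC2, 1 and 2 of 10 near CCDC80, 1 and 3 of 5 near LINC01929, and 3 and 6 of 14 near LGALS12. Without parental 231+siMyc replicate 3, the counts within 1 Mb near CLIC2 became 12 higher and 14 lower of 42 and those near LGALS12 11 and 34 of 72, with 8 and 6 near TNS1, 3 and 5 near CCDC80 and 2 and 4 near LINC01929. The shares of all genes in that fit were 23.1% higher and 26.6% lower. No expressed gene lay within 1 Mb of TNS1 on the side of lower coordinates, and its nearest expressed neighbour on the other side was ARPC2, a subunit of the actin-nucleating Arp2/3 complex, 183 kb away (log2 fold change −0.12, edgeR adjusted p = 0.313). The nearest expressed neighbours of CCDC80 on each side did not pass the threshold, with SLC35A5 at −0.08 (edgeR adjusted p = 0.57) and GTPBP8 at 0.08 (edgeR adjusted p = 0.61).

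Some neighbours went the way of the gene they flank and others the opposite way. LGALS12 lies in a cluster of PLAAT genes, which encode phospholipase A and acyltransferase enzymes. PLAAT5, 14.9 kb away, was lower in 231:TKO (log2 fold change −4.76, edgeR adjusted p = 2.37e-08), at 3.54 ± 0.465 CPM in parental 231+siMyc and 0.134 ± 0.0660 CPM in 231:TKO+siMyc (SD, n = 3). PLAAT4, 20034 bases away on the other side, was lower too (−1.71, edgeR adjusted p = 2.97e-07), at 185 ± 37.0 and 59.7 ± 3.79 CPM. The other PLAAT genes of the cluster differed less: PLAAT3, 56.2 kb away, had a log2 fold change of −0.32 (edgeR adjusted p = 0.0192), and PLAAT2, at 35996 bases, did not pass (−0.09, edgeR adjusted p = 0.797). Like LGALS12, PLAAT5 and PLAAT4 had higher levels with siNT than untreated in parental 231, PLAAT5 at 3.50 against 0.602 CPM and PLAAT4 at 142 against 14.9 CPM. In 231:TKO, PLAAT4 was also higher with siNT, at 44.2 against 12.3 CPM, and PLAAT5 was at 0.158 against 0.374 CPM. The untreated log2 fold changes between the populations were −0.23 (SE 0.35) for PLAAT4 and −0.64 (SE 0.36) for PLAAT5. ATL3, 107 kb away and named after its value was seen, was higher in 231:TKO (0.99, edgeR adjusted p = 1.18e-05). CHRM1, 584 kb away and named in the same way, had 143 counts in 231:TKO+siMyc and 0 in parental 231+siMyc. With siNT, CHRM1 had 72 and 2 counts, and untreated it had 0 in both populations. Beside LINC01929, the transcription factor gene TCF4, 97.9 kb away, had 498 counts in parental 231+siMyc and 2 counts in 231:TKO+siMyc, and 463 and 2 counts with siNT. RAB27B, 210 kb away and also named after its value was seen, was lower in 231:TKO (−1.17, edgeR adjusted p = 5.4e-05), whereas CCDC68, the nearest expressed gene on the other side at 146 kb, was higher by 0.38 (edgeR adjusted p = 0.0168). In untreated cells, RAB27B had a value of 0.23 (SE 0.13) and CCDC68 one of 0.95 (SE 0.15). Beside CLIC2, neighbours went both ways. TMLHE, the enzyme of the opening step of carnitine synthesis, is 154 kb away and was lower in 231:TKO (−4.83, edgeR adjusted p = 1.4e-06), at 1.79 ± 0.216 and 0.0650 ± 0.0732 CPM, and VBP1, 36.4 kb away on the other side, was lower by little (−0.34, edgeR adjusted p = 0.0122). BRCC3 at 153 kb, SPRY3 at 278 kb and MPP1 at 455 kb, named after their values were seen, were higher, with log2 fold changes of 0.49, 1.62 and 0.98 (edgeR adjusted p = 0.00207, 0.00115 and 2.85e-06). In untreated cells, BRCC3 was at 0.08 (SE 0.09) and MPP1 at 0.70 (SE 0.09). SPRY3, from 3 counts in each population, was at −0.54 (SE 1.66).

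**Figure D5:**
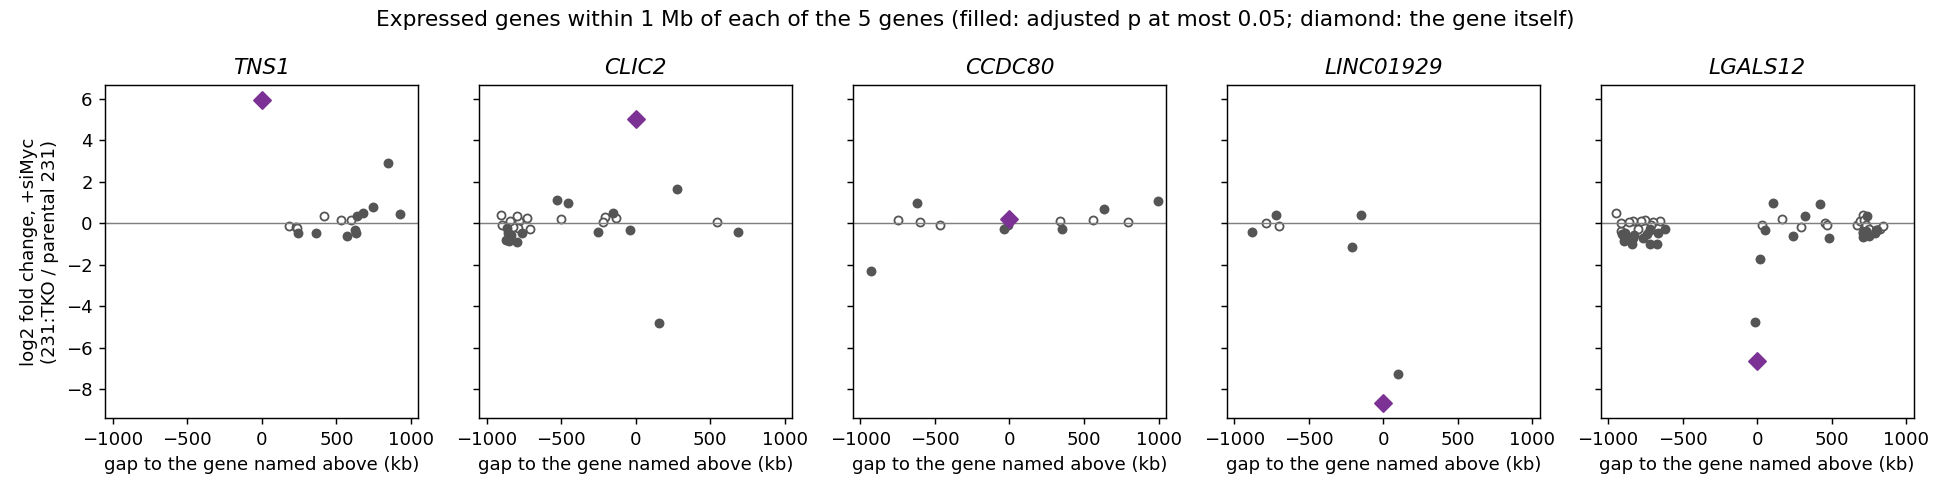
Log2 fold change of 231:TKO+siMyc relative to parental 231+siMyc for expressed genes within 1 Mb of each of the 5 genes, against the gap between the genes in kilobases (negative: lower coordinates). Diamonds are the 5 genes, and filled points passed the threshold. The 2 neighbours without counts in 1 of the groups, among them CHRM1 near LGALS12, are not drawn. TCF4, near LINC01929, is drawn at its fitted value, which rests on 2 counts in 231:TKO+siMyc. PLAAT5 at −4.76 lies near LGALS12, and near CLIC2, itself at 4.99, genes lie between TMLHE at −4.83 and SPRY3 at 1.62.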

How the data were processed

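From MDA-MB-231 cells, 16 RNA libraries were sequenced by the authors, who used STAR for alignment (genome build GRCh38) and featureCounts 1.6.3, set to the reverse strand, for counting per gene. The deposited values are raw counts per gene and library, without normalization, for 60719 genes over both annotation releases, of which 60620 are in both. Groups were taken from the sample labels. The 5 genes, the gene lists and the tests were chosen with earlier results of these data known.

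Genes with more than 5 summed counts in a comparison were tested with edgeR 4.0.16 (TMM scaling, robust quasi-likelihood test, R 4.3.3) on the libraries of that comparison, with Benjamini-Hochberg adjustment over all genes tested and a threshold of 0.05. Per-library CPM were divided by plain library totals, with exact Clopper-Pearson 95% intervals, and a count of 0 was given a floor of 3 counts. Depth ran from 18953668 to 59799444 counts per library, and in the untreated 231:TKO libraries the floor was at most 0.1041 CPM. Alternatives were DESeq2 1.42.0 or its size factors, other count filters, a replicate block, genes of equal length in both releases, 1 fit of the 12 siRNA libraries, and leaving out each library. The fits with a factor for, or without, the parental 231 libraries that stood apart were added after seeing the data. Scripts were tested on simulated data.

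Named genes were the 5 genes, TXNIP and MYC, listed genes with a group mean of at least 1 CPM, the 3 genes most similar in pattern to each gene, and the nearest expressed neighbours. Markers and galectins below that level were named beside their list. Promoter windows came from RefSeq (GRCh38.p14), with coordinates counted from 1. The genome of another build was not used here.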

Additional observations from a re-analysis of the deposited data

How the results depend on the processing

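The difference between 231:TKO+siMyc and parental 231+siMyc kept its direction and its side of the threshold for all 5 genes under each alternative run (13 for TNS1, CLIC2, CCDC80 and LGALS12, and 12 for LINC01929, which a filter of more than 5 counts in every library removed). The number of genes called in that comparison ran from 7353 to 11354. In 231:TKO, 6106 genes were called with siMyc, and 2493 in 1 fit of the 12 siRNA libraries. There the TNS1 value of 0.18 passed with the replicate block (edgeR adjusted p = 0.0166), without a filter (0.0387) and with more than 5 counts in every library (0.0487). Leaving out a library gave 0.13 to 0.24 for TNS1, 0.10 to 0.20 for CLIC2 and −0.31 to 0.12 for LGALS12, whose value was 0.12 without 231:TKO+siNT replicate 2 and 0 without replicate 3.

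In parental 231, the 141 calls became 91 with DESeq2 size factors, 0 with the replicate block, 1110 with DESeq2, 330 without a filter, 225 with more than 5 counts in every library, 1666 in 1 fit of the 12 siRNA libraries, 6366 with the factor for the pair that stood apart and 4673 without the pair, and 0 to 160 with a library left out, the 0 without siNT replicate 2 or 3 or siMyc replicate 1 or 2. CCDC80 passed with DESeq2 (0.49), in 1 fit (0.49), with the factor (0.49) and without the pair (0.51), and LINC01929 with the factor (0.16) and without the pair (0.21). CLIC2 ran from −0.01 to 0.15 and LGALS12 from −0.08 to 0.17 with a library left out, and LGALS12 was −0.01 without the pair. In untreated cells CLIC2 ran from −0.37 to 3.10. Except where fewer libraries or genes entered, the cause was not tested. The replicate numbers were not shown to pair libraries, since the correlations of same-numbered deviations were −0.154, 0.127 and 0.269 in 231:TKO and −0.816, 0.638 and −0.75 in parental 231. Depth limits CLIC2 in untreated cells and LINC01929 in 231:TKO, where libraries hold 0 to 47 counts.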
